A study of Acomys cahirinus and Mus musculus with 10 samples.

Results

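The 9 laminin chain genes Lama1, Lama2, Lama3, Lama4, Lama5, Lamb1, Lamb2, Lamb3 and Lamc1 were followed through the healing of an ear hole in the spiny mouse Acomys cahirinus and in the mouse Mus musculus. They were taken by their M. musculus symbols, among 22346 M. musculus genes with a value on all 4 days after injury. In A. cahirinus, whose transcripts had been assembled without a genome, each chain was read from the assembled transcript group, called a component here, that held the highest BLASTN score to the M. musculus gene at under 99% identity, among 640585 components with a value on all 4 days. Lamc3, a gamma chain outside the 9, was read in the same way and is given beside them.

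Laminins are cross-shaped proteins of the basement membrane, each built of an alpha, a beta and a gamma chain. The alpha chain sets the place where a laminin is used: alpha-1 is a chain of embryonic basement membranes, alpha-2 of muscle fibres and nerve sheaths, alpha-3 of the membrane under the epidermis, alpha-4 of blood vessels, muscle, nerve and fat, and alpha-5 of most adult epithelia and vessels. Beta-1, beta-2 and gamma-1 join most of these alpha chains, whereas beta-3 joins alpha-3 in laminin-332, which anchors basal keratinocytes and over which they migrate.

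The study set healing labelled regenerating in A. cahirinus beside healing labelled fibrotic in M. musculus. Ear holes of 4 mm were punched in sexually mature females of A. cahirinus and of M. musculus, whose stock was CD1. A ring of tissue around the hole was taken 5, 10, 15 and 20 days later (D5 to D20), and uninjured ear served as D0. The design gave 3 animals to each of the 10 groups, and total RNA depleted of ribosomal RNA was sequenced. The tables held only pooled values: a fold change of each day against D0 and the posterior probability, from EBSeq, that a gene differed between the groups. A change was called at a posterior probability of at least 0.95, no spread between animals could be given, and all 4 days of a species shared the same D0 animals.

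Group means, in normalised expected counts, were recovered from the 2 fold changes each table gives for a gene. In A. cahirinus the lowest means lay on 3 single-read steps at D0, D5, D10 and D20 but on 2 steps at D15. The D15 steps were 0.609 and 0.374 normalised counts, against 0.257 to 0.449 in the other 4 groups. Whether the D15 group held 2 libraries or 1 library entered more than once was not tested, and the D15 means and calls of A. cahirinus carry this limit. Tissue was ground whole, so fewer cells of a type and less RNA per cell cannot be told apart. Ear tissue of both species held RNA of keratinocytes, fibroblasts, vessels, Schwann cells, skeletal muscle and fat, and no measured marker of these types was at 0 in any group.

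To show what was measured, a coding exon is given for 4 chains that behaved differently in the 2 species or led the early response, with the A. cahirinus contig beneath the M. musculus exon and the bases that differ in capitals. The exons, from GENCODE vM21 on GRCm38, are exon 50 of 63 of Lama1 (chr17:67809211-67809355, plus strand), exon 13 of 22 of a Lama2 transcript (chr10:27006680-27006828, minus strand), exon 28 of 33 of Lamb1 (chr12:31324176-31324320, plus strand) and exon 18 of 23 of Lamb3 (chr1:193335357-193335501, plus strand). All 4 exons are coding over their whole length, and each is printed 5′ to 3′ along the transcript.
Lama1, M. musculus: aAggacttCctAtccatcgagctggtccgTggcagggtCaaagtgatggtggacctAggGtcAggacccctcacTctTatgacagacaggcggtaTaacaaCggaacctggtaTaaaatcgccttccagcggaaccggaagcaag
Lama1, A. cahirinus: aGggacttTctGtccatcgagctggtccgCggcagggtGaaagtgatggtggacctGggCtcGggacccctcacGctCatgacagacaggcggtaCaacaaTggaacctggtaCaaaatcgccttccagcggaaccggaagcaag
Lama2, M. musculus: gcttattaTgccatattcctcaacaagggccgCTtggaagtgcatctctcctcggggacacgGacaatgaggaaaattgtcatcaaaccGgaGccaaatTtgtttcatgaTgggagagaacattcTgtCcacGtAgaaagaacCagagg
Lama2, A. cahirinus: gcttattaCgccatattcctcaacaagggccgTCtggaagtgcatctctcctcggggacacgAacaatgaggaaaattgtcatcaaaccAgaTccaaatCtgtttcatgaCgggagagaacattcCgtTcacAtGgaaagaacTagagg
Lamb1, M. musculus: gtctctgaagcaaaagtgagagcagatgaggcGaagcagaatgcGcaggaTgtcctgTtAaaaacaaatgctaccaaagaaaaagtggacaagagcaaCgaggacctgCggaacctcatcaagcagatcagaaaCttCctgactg
Lamb1, A. cahirinus: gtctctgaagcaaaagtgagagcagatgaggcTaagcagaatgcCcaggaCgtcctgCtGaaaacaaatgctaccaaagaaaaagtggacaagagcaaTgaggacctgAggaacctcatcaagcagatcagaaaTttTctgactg
Lamb3, M. musculus: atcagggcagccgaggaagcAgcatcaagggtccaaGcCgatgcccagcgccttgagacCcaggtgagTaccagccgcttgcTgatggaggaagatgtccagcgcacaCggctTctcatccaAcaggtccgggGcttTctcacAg
Lamb3, A. cahirinus: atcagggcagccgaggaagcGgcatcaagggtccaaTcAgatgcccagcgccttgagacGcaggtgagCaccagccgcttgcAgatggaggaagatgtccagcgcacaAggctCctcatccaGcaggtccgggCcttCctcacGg
The 2 species differed at 13 of 145 bases in Lama1, 13 of 149 in Lama2, 9 of 145 in Lamb1 and 12 of 145 in Lamb3. The A. cahirinus values below come from contigs that differ from the M. musculus gene: over the whole best hit the identity was 87.3% for Lama1, 89.5% for Lama2, 91.8% for Lamb1 and 89.8% for Lamb3, and no component of any of the 9 chains reached 99%.

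At D5 in A. cahirinus, 3 of the 9 chains were called higher (Lama1, Lama3 and Lamb3) and 2 lower (Lama2 and Lamb2). Of all components with a BLASTN hit and a mean of at least 10 in either group, 25.4% were called higher and 10.8% lower on that day. At D10, 4 chains were called higher (Lama3, Lama4, Lamb1 and Lamb3) and Lama2 lower, against 17.7% and 10.4% of the components. At D15, 3 were called higher (Lama3, Lama4 and Lamb1) and Lama2 lower, against 15.7% and 12.9%. At D20, 2 were called higher (Lama3 and Lamb1) and 0 lower, against 11.1% and 13.4%. Lama1 reached a mean of 10 through its D5 group alone. At a threshold of 0.99 the D20 count was 0. Lama4 and Lamb1 thus joined the called chains at D10, after Lama1, Lama3 and Lamb3 at D5.

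At D5 in M. musculus, 5 chains were called higher (Lama3, Lama4, Lamb1, Lamb3 and Lamc1) and Lama2 lower, where 23.8% of genes with a mean of at least 10 were called higher and 19.4% lower. At D10, 3 were called higher (Lama4, Lamb1 and Lamc1) and 2 lower (Lama3 and Lamb3), against 21.3% and 19.6% of genes. At D15, Lama5 (posterior probability 0.987) joined the 3 that were higher, and Lama3 and Lamb3 were again lower, against 18.9% and 17.9%. At D20, 6 were called higher (Lama2, Lama4, Lama5, Lamb1, Lamb2 and Lamc1) and the same 2 lower, against 17.6% and 17.0%. The median log2 change of the 9 chains from D5 to D20 was 0.09, 0.34, 0.08 and -0.00 in A. cahirinus. For M. musculus it was 0.44, 0.19, 0.31 and 0.46, beside 0.15, 0.07, 0.02 and -0.04 over the A. cahirinus components counted above and 0.01 on each day over the M. musculus genes.

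**Figure D1:**
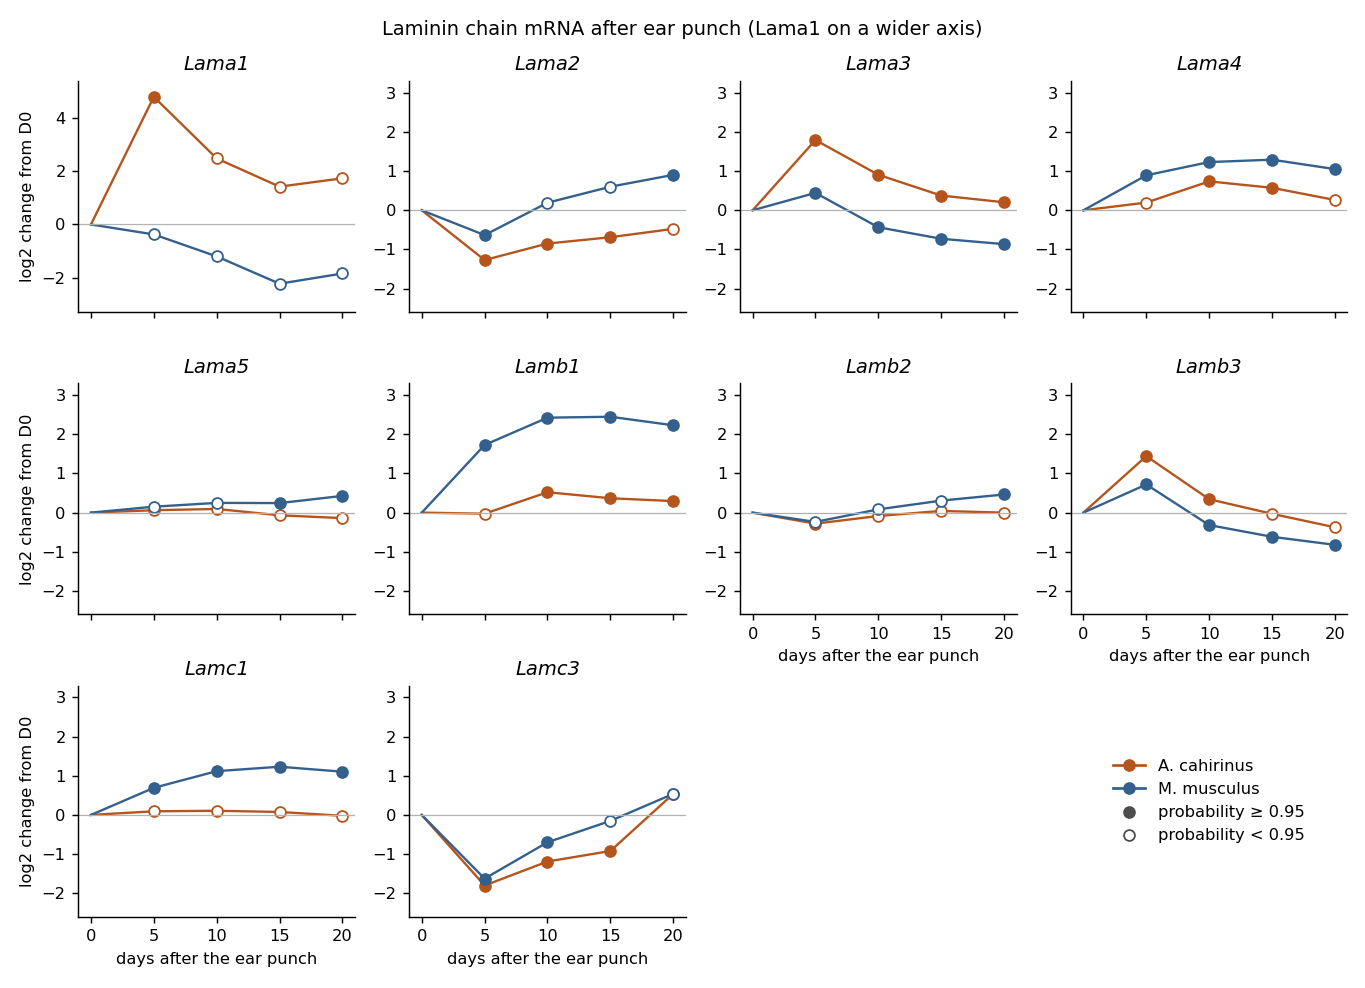
Log2 change from D0 (y axis) of the 9 laminin chains and of Lamc3 against days after the ear punch (x axis), A. cahirinus in brown and M. musculus in blue, each point being 1 pooled group; filled points had a posterior probability of at least 0.95. Lama1 at D5 in A. cahirinus stands at 4.80, and Lamb1 in M. musculus stays at or above 1.73 from D5 on.

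Lama1, the alpha chain of laminin-111, was near the floor in uninjured A. cahirinus ear. Its main component had means of 0.84, 23.8, 4.76, 2.27 and 2.83 (D0 to D20). The D5 group stands apart from the other 4, and the change at D5, 4.80 on the log2 scale, was called, while those at D10, D15 and D20 (2.49, 1.42 and 1.74) were not. With 1 added to each mean the changes from D5 to D20 were 3.75, 1.72, 0.87 and 1.06. In reads this was about 3 at D0 against 65 at D5 over the group, a ratio of 27.1 with an exact 95% interval of 8.88 to 135 that covers counting error only.

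The assembly had broken Lama1 of A. cahirinus into 14 measured components spread along the M. musculus transcript. All 14 had a higher mean at D5 than at D0, 6 of them were called higher at D5, and 5 had no read at D0. Only components with a value on all 4 days were counted, and other Lama1 pieces were left out. A component without reads in both groups of a comparison has no value. The 5 without a read at D0 were therefore higher at D5 by construction. Their summed means were 3.52, 133, 21.3, 23.9 and 14.5 (D0 to D20), and about 12 reads at D0 stood against 363 at D5, a ratio of 37.9 (exact 95% interval 21.4 to 74.0). This interval, too, covers counting error only and not the spread between animals. The higher D5 level was thus seen in pieces from near the start to near the end of the transcript, from position 69 to 9248 of 9518. These pieces belong to the same gene read in the same animals, so they are not independent of each other. After D5 the summed level was between 4.13 and 6.80 times that at D0, with 0 of the 14 called. The rule by which pieces were counted can raise the D5 and later sums relative to D0, by an amount that was not tested.

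**Figure D2:**
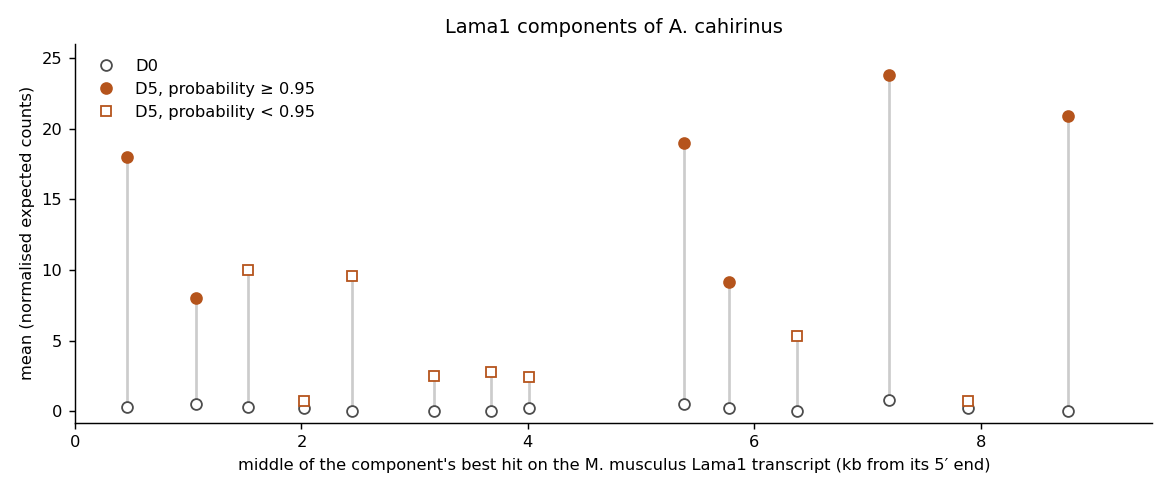
Mean in normalised expected counts (y axis) of the 14 A. cahirinus Lama1 components at D0 (open circles) and D5 (brown), placed by the middle of their best hit on the M. musculus transcript in kb (x axis). Every component lies higher at D5, those without a read at D0 by construction, and the 6 called ones reach from 8.04 to 23.8.

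In M. musculus the same gene had means of 27.5, 21.2, 11.9, 5.84 and 7.63 (D0 to D20). The log2 changes were -0.37, -1.20, -2.23 and -1.85, so every wound group lay under the uninjured ear, but 0 of the 4 was called. About 73 reads at D0 and 29 at D20 lay behind these means. Per kb of transcript, and by its main component in A. cahirinus, Lama1 was the lowest alpha chain of both species on every day.

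Lama2, the alpha chain of muscle and Schwann cell laminin, fell in A. cahirinus. Its means were 3735, 1549, 2074, 2319 and 2689 (D0 to D20), so all 4 wound groups lay under the uninjured ear, the later ones nearer to it. The log2 changes were -1.27, -0.85, -0.69 and -0.47, of which the first 3 days were called and D20, at a posterior probability of 0.866, was not. In M. musculus the means were 1363, 879, 1558, 2069 and 2551 (D0 to D20). There Lama2 was called lower at D5 (-0.63) and higher at D20 (0.90), the D10 and D15 groups lying between and not called.

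Markers of the cells that carry alpha-2 laminin moved in the same tissue. Of 4 Schwann cell markers (Mbp, Sox10, Prx and S100b), all 4 were called lower at D5, D10 and D15 in A. cahirinus and 3 at D20, with a summed mean of 2058 at D0 and 488 to 882 afterwards. In M. musculus 3, 3, 3 and 2 of the 4 were called lower from D5 to D20, the summed mean being 1774 at D0 and 533 to 878 afterwards. Sox10 there stood at -1.52, 0.41, 1.03 and 0.93 from D5 to D20, called on no day. Skeletal muscle markers were called lower for 5 of 5 measured genes on every day in M. musculus, and for 2 of 3 (Myh4 and Tnnt3) on every day in A. cahirinus, where the component read as Acta1, also the top component of the smooth muscle actin gene Acta2, was called higher at D5 to D15. The Myh4 component was likewise the top one of Myh1. The part of these cells in the Lama2 values was not tested.

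Lama3 showed changes of opposite sign within the gene in A. cahirinus. Its main component had means of 1346, 4668, 2523, 1747 and 1551 (D0 to D20), and all 4 changes (1.79, 0.91, 0.38 and 0.20) were called higher. The other 2 Lama3 components were called lower on all 4 days: means of 1337, 662, 734, 775 and 774 in the larger and of 309, 180, 170, 175 and 168 in the smaller, each from D0 to D20.

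The components followed the structure of the gene. Lama3 makes a long transcript, which encodes alpha-3B with its full short arm, and a short one with its own start, which encodes the alpha-3A chain of classical laminin-332. In the M. musculus reference the short transcript of 5550 bases runs along the long one of 10342 bases from position 193, where it joins the long one at position 4985. The smaller falling component matched positions 1 to 1076 of the long transcript and the larger one positions 1053 to 5010, so that both lie, but for the last bases, in the part that only the long transcript holds. The rising component matched the short transcript from its position 5, before the shared part begins, and then the shared part as far as position 9994 of the long one.

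The components were set side by side per kb of transcript covered. Hits cover 5178 bases for the rising component, 3958 for the larger falling one and 1076 for the smaller. Their longest contigs had 21453, 11702 and 2486 bases. Any reads on the rest of a contig are counted too, which can raise these levels by an amount that was not tested. Ratios between components carry this limit, while the fold change of each component over the days does not depend on the length used. At D0 the shared part stood at 260 and the long-only parts at 287 and 338. At D5 it stood at 902 and they at 167 and 167, a ratio of 5.39. At D10 the shared part was at 487, or 2.63 to 3.08 times the long-only parts, and at D20 at 299.5, or 1.53 to 1.92 times. The long-only level therefore dropped once, by D5, and stayed down to D20. The level of the component with the short start went up by D5 and then fell towards its D0 level, above which it still stood at D20. For comparison, the 2 large components of Lama4 differed by 1.22-fold at D0 and those of Lamb2 by 1.40-fold. Their longest contigs (2675 to 4909 bases) lay nearer to the bases covered (2183 to 3559). These values therefore do not bound the error of the Lama3 ratios.

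**Figure D3:**
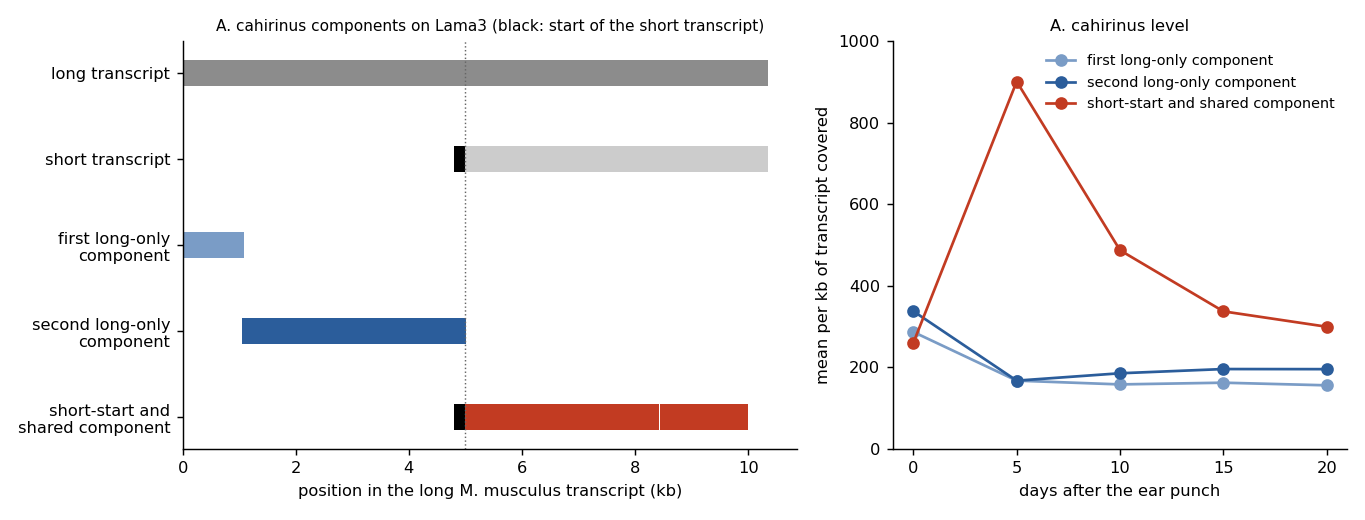
Left, where the 3 A. cahirinus Lama3 components match the long M. musculus transcript (x axis, position in kb), with the start of the short transcript in black. Right, mean per kb of transcript covered (y axis) against days after the punch (x axis): the component with the short start goes from 260 to 902 at D5 while both long-only components go down to 167. Any reads on contig parts outside the covered bases are counted too, which limits comparison of levels between components.

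In M. musculus, where reads of the 3 Lama3 reference transcripts were pooled into 1 gene value and the starts cannot be told apart, the means were 1956, 2662, 1449, 1182 and 1075 (D0 to D20). Lama3 was called higher at D5 (0.44) and lower at D10, D15 and D20 (-0.43, -0.73 and -0.86). Summing the 3 A. cahirinus components gave 2991 at D0 and 5510 at D5, a log2 change of 0.88, followed by 0.20, -0.15 and -0.26. Summed over its components, Lama3 thus stood higher than D0 at D5 in both species and lower at D15 and D20 in both.

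Lama4, the alpha chain of capillaries, muscle, nerve and fat, was called higher at D10 and D15 in A. cahirinus and on all 4 days in M. musculus. Its means in A. cahirinus were 918, 1052, 1531, 1367 and 1102 (D0 to D20), and the changes were 0.20, 0.74, 0.57 and 0.26. A separate component with the 3′ part of the transcript gave 0.07, 0.72, 0.57 and 0.33, the last 3 called, so the course was alike in both parts of the gene. In M. musculus the means were 737, 1369, 1730, 1804 and 1527 (D0 to D20), with changes of 0.89, 1.23, 1.29 and 1.05.

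Endothelial markers, a list of 6 measured genes (Cdh5, Tek, Kdr, Emcn, Tie1 and Vwf), were set beside Lama4. In M. musculus 5, 2, 3 and 3 of the 6 were called higher from D5 to D20 and 0 lower, with a summed mean of 1144 at D0 and 1727 to 2260 afterwards. In A. cahirinus Vwf was called higher at D5, D10 and D15, Kdr was called lower at D15, and 4 of the 6 were called lower at D20, with a summed mean of 2717 at D0, 3439 at D10 and 2103 at D20. The part of vessels in the Lama4 values was not tested.

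Lama5, the widespread epithelial alpha chain, stayed within 0.43 of D0 on the log2 scale in both species. Its mean in A. cahirinus ran from 815 at D20 to 958 at D10, around 898 at D0, and 0 of 4 changes was called. In M. musculus the means were 880, 977, 1045, 1041 and 1182 (D0 to D20). The last 2 changes, 0.24 and 0.43, were called higher.

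Lamb1, the beta chain that pairs with alpha-1, alpha-2, alpha-4 and alpha-5 in many tissues, gave the largest called and lasting rise among the 9 chains in M. musculus. The means there were 453, 1500, 2432, 2472 and 2126 (D0 to D20). All 4 wound groups lay far above the uninjured ear, with log2 changes of 1.73, 2.42, 2.45 and 2.23, all called. In A. cahirinus the means were 1949, 1913, 2797, 2514 and 2391 (D0 to D20). The D5 change, -0.03, was not called, and the later 3 were called higher (0.52, 0.37 and 0.29).

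Lamb2, the beta chain of muscle, nerve and vessel laminins, was called on 1 day in each species. In A. cahirinus its mean was 1444 at D0 and 1188 at D5 (-0.28, called lower), and between 1361 and 1488 on the later days, with 0 of 3 called. The component with the 3′ part of the transcript was also called lower at D5 (-0.53). In M. musculus the means were 1132, 961, 1199, 1400 and 1560 (D0 to D20), and only the D20 change, 0.46, was called.

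Lamb3, the beta chain of laminin-332, rose at D5 in both species. Its means in A. cahirinus were 668, 1813, 846, 654 and 515 (D0 to D20). It was called higher at D5 (1.44) and D10 (0.34) and was not called at D15 or D20. In M. musculus the means were 864, 1422, 693, 564 and 489 (D0 to D20). The D5 change of 0.72 was called higher and the later 3 (-0.32, -0.62 and -0.82) lower.

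Lamc1, the common gamma chain, was called on no day in A. cahirinus and rose on all 4 in M. musculus. The A. cahirinus mean stayed between 2111 at D20 and 2308 at D10, with 2144 at D0, and 0 of 4 changes was called. The M. musculus means were 1345, 2173, 2919, 3157 and 2892 (D0 to D20), with called changes of 0.69, 1.12, 1.23 and 1.10. The 5 groups of M. musculus thus separated uninjured from wounded ear, while those of A. cahirinus lay within 0.11 of D0 on the log2 scale.

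Lamc3, a gamma chain found on ciliated surfaces and in nerve, was called lower at D5, D10 and D15 in A. cahirinus (-1.80, -1.19 and -0.92) and at D5 and D10 in M. musculus (-1.63 and -0.70). Its M. musculus change at D15 (-0.15) and its change at D20 (0.54 in both species) were not called.

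Basal keratinocyte markers were set beside Lama3 and Lamb3. In A. cahirinus 3 of the 4 measured (Krt15, Itgb4 and Col17a1) were called higher at D5, and 0 higher and 2 or 3 lower on the later days, the summed mean being 17837 at D0, 33863 at D5 and 11372 at D20. In M. musculus 2 of 6 (Krt14 and Krt5) were called higher and 3 lower at D5, with a summed mean of 51228 at D0, 111863 at D5 and 40136 at D20. Krt14 and Krt5 are not among the 4 genes counted in A. cahirinus, and the 3 called lower all are. The median log2 change of the list at D5 was -0.14 in M. musculus and 0.62 in A. cahirinus. The A. cahirinus component read as Krt15 was also the top component of Krt14, so reads of these genes cannot be told apart there, and that of Krt5 matched another gene better and was not counted. Itgb4 and Col17a1 are also anchoring genes described below. The part of keratinocyte numbers in the Lama3 and Lamb3 values was not tested.

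Levels of different chains were compared per kb, as shares of the summed alpha or beta level. In uninjured M. musculus ear Lama3 held 35.6% of the alpha level, Lama2 26.4%, Lama4 22.9%, Lama5 14.5% and Lama1 0.543%. Each M. musculus value was divided by the longest transcript of its gene. For Lama3 that was 10342 bases, although its value pools shorter transcripts too, and its share by a shorter length is not given. At D5 Lama3 held 38.9% and Lama4 34.2%, at D10 Lama4 held 42.1%, and at D20 Lama2 and Lama4 held 36.3% and 34.9%. The leading alpha chain was thus Lama3 at D0 and D5, Lama4 at D10 and D15, and Lama2, closely followed by Lama4, at D20. Without division by length Lama2 led at D15 (33.9% against 29.6% for Lama4). No spread between animals was available to say which neighbours in these orders differ.

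In A. cahirinus, dividing by the longest contig of each component, Lama2 held 50.1% at D0, Lama4 30.0%, Lama3 10.1%, Lama5 9.71% and Lama1 0.111%. At D5 Lama3 (33.8%) and Lama4 (33.3%) led, and Lama4 led at D10 (46.5%) and D15 (45.4%). Without division by length the main component of Lama3 led at D10 (35.6% against 21.6% for Lama4) and Lama2 at D15 (36.9% against 21.7%). The main components of Lama3 and Lama4 hold only part of these genes. Summed over components, Lama3 led at D15, with a mean of 2696 against 2319 for Lama2 and 2052 for Lama4. The longest Lama3 contig had 21453 bases, far over the transcript, and dividing instead by the transcript that the hits cover, a choice made after seeing the data, raised Lama3 to 26.3% at D0, 61.7% at D5 and 39.8% at D10 and put it ahead of Lama4 (35.2%) at D10. Under both lengths Lama2 led at D0 and Lama3 at D5. At D20 Lama2 and Lama4 held nearly equal shares by the longest contig, while per kb covered the order was Lama4, Lama3 and Lama2. By its main component, Lama1 had its highest share at D5, at 3.03% or 1.34%.

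**Figure D4:**
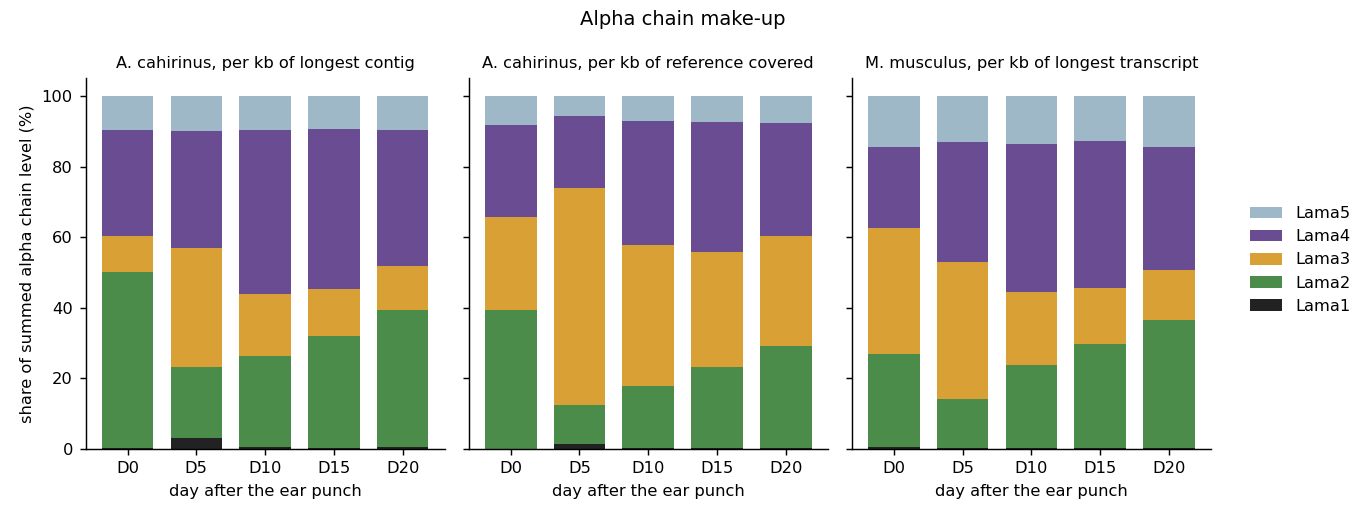
Share (y axis, percent) of each alpha chain in the summed alpha chain level per kb at D0 to D20 (x axis), for A. cahirinus by 2 choices of length and for M. musculus by the longest transcript. The kind of length thus differs between the panels. Lama2 holds 50.1% or 39.2% of the A. cahirinus level at D0, against 26.4% in M. musculus, and the Lama4 block is wider at D10 than at D0 in every panel.

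Among the beta chains, Lamb1 held 17.1% of the level in uninjured M. musculus ear and 54.2% at D10, against 31.8% and 39.6% in A. cahirinus. There Lamb2 led per kb at D0 (51.5%) and again at D10, D15 and D20. Without division by length the A. cahirinus shares of Lamb1 were 48.0% at D0 and 55.9% at D10, ahead of the main component of Lamb2. That component holds only part of the Lamb2 transcript. Summed over components, Lamb2 was ahead at D0 (a mean of 2725 against 1952 for Lamb1) and behind at D10 (2510 against 2801). Lamb3 held the largest share per kb at D5 in both species (40.4% in M. musculus, A. cahirinus 38.1%). Without division by length Lamb1 led at D5, with 38.6% against 36.6% for Lamb3 in M. musculus. By main components it also led in A. cahirinus (38.9% against 36.9%). Summed over components, Lamb2 led there at D5, with a mean of 2078 against 1915 for Lamb1 and 1813 for Lamb3.

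The species were set side by side by subtracting the M. musculus log2 change from that of A. cahirinus and averaging over the 4 days, a description without a test. Among paired genes, 12712 had means of 10 or more in each species, and over these the median of this difference was 0.04 and the 5th to 95th percentiles were -1.32 to 1.12. Lama3 (1.22) and Lamb1 (-1.92) lay outside this range and 6 chains inside it: Lama2 (-1.09), Lamc1 (-0.97), Lama4 (-0.67), Lama5 (-0.28), Lamb2 (-0.24) and Lamb3 (0.60). Lama1 (4.03) is not set against the range, since its A. cahirinus mean reached 10 at D5 alone. The difference of Lama3 depends on the component, since the larger long-only component gave -0.47 and the sum of all 3 gave 0.56.

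Read from the main components, the difference kept 1 sign over the 4 days in each of the 9 chains. For Lamb1 the difference was -1.75, -1.90, -2.08 and -1.94 on successive days, with a standard deviation over days of 0.13. For Lama2 it widened from -0.64 at D5 to -1.38 at D20. The 4 days share the D0 animals of each species, so a high or low D0 value enters all of them, and for Lamb1 the D0 means were 1949 (A. cahirinus) and 453 (M. musculus). Means were normalised separately in each species, so these levels cannot be compared directly.

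**Figure D5:**
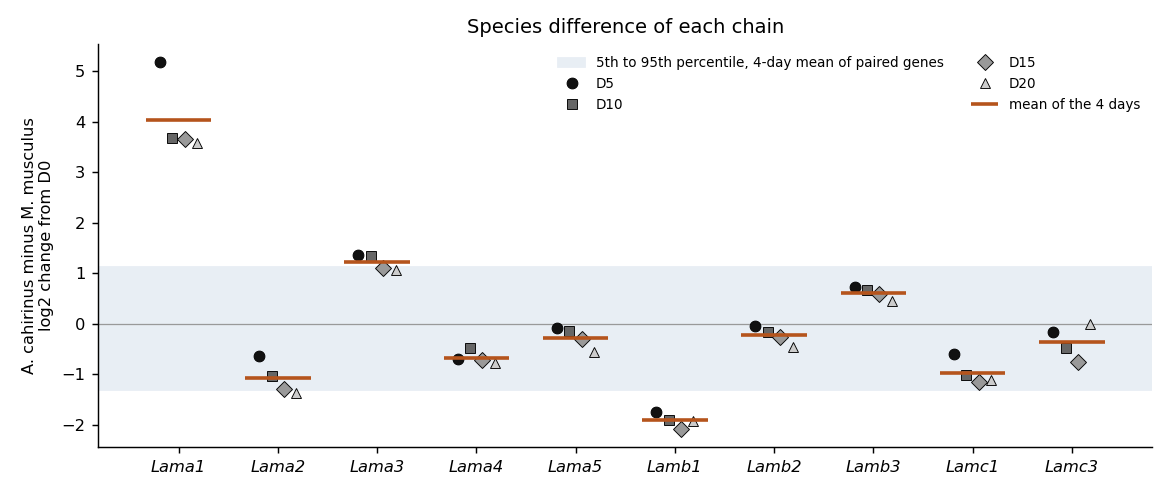
A. cahirinus minus M. musculus log2 change from D0 (y axis) for each chain (x axis), with 1 symbol per day and the mean of the 4 days as a brown bar; the shaded band is the 5th to 95th percentile of the 4-day mean over 12712 paired genes (-1.32 to 1.12). The 4-day mean of Lamb1 lies below the band, which applies to the bars and not to single days; the band does not apply to Lama1, whose A. cahirinus mean reached 10 at D5 alone.

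By the distance between their 8 log2 changes (4 days in each species), Lama5 and Lamb2 were nearest to each other (0.60), followed by Lama4 and Lamc1 (0.89) and by Lama3 and Lamb3 (1.02). Lama2 was nearest to Lamb2 (1.66) and Lamb1 to Lama4 (2.23). Lama1 stood apart, its nearest chain being Lama3 at 4.41. In A. cahirinus these distances use main components alone. The distances of Lama3 thus rest on the component with the short start, while its long-only components were called lower on all 4 days.

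Of 12 laminin receptor genes, 7 were called higher and 2 lower at D5 in A. cahirinus, beside 25.4% and 10.8% of the components counted above, and 5 higher and 2 lower in M. musculus, beside 23.8% and 19.4% of the genes counted above. At D20 A. cahirinus had 3 higher and 6 lower, beside 11.1% and 13.4%, and M. musculus 3 and 2, beside 17.6% and 17.0%. At D10 the highest called receptor in both species was Itgb1, the beta subunit shared by most laminin-binding integrins, at 1.58 in A. cahirinus and 0.90 in M. musculus. The lowest were Bcam, a receptor of alpha-5 laminins, in A. cahirinus (-0.77) and Sdc4, a heparan sulphate proteoglycan, in M. musculus (-0.42). Itgb1 was called higher on all 4 days in both species.

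Of 20 genes for basement membrane partners 17 were measured. From D5 to D20, 3, 5, 5 and 6 were called higher and 8, 9, 6 and 6 lower in A. cahirinus, against 9, 9, 9 and 8 higher and 7, 6, 6 and 3 lower in M. musculus. Over the same days 11.1% to 25.4% of the components with a BLASTN hit and a mean of at least 10 were called higher and 10.4% to 13.4% lower, and 17.6% to 23.8% of the genes with such a mean higher and 17.0% to 19.6% lower. Col18a1, whose collagen yields endostatin, was the highest called at D10 in A. cahirinus (2.53), while Egfl6, an integrin-binding protein of hair follicle basement membrane, was the lowest there (-2.46) and the highest in M. musculus (2.77). The lowest in M. musculus was Col4a3 (-2.46), a type IV collagen chain of specialised membranes. The median log2 change of the 17 at D10 was -0.50 for A. cahirinus, against 0.74 for M. musculus.

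Of 7 genes that anchor the epidermis to laminin-332, 5 were called higher and 1 lower at D5 in A. cahirinus (25.4% and 10.8% of components), and 3 higher and 3 lower in M. musculus (23.8% and 19.4% of genes). At D10 Col7a1, which forms the anchoring fibrils below laminin-332, was the highest called in both species (2.30 in A. cahirinus and 2.32 in M. musculus). Col17a1, the hemidesmosomal collagen that binds laminin-332, was the lowest in both (-0.37 and -1.08).

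Markers of fibroblasts, macrophages, fat and mural cells moved in the same tables. Fibroblast markers were called higher for 4 of 4 measured genes at D10, D15 and D20 in A. cahirinus (1 higher and 1 lower at D5), and for 3, 4, 4 and 4 of 5 in M. musculus. Their summed mean was 21667 at D0 and 22605 to 169945 afterwards in A. cahirinus, and 38547 at D0 and 156459 to 345512 in M. musculus. Macrophage markers were called higher for 3 of 3 genes from D5 to D15 in A. cahirinus and for 4 of 4 on all days in M. musculus, and 3 of 3 fat cell markers were called lower on all days in A. cahirinus and at D5 and D10 in M. musculus. Of the mural cell markers, 0 to 1 of 5 was called higher and 2 to 4 lower in A. cahirinus, against 3 higher and 1 to 2 lower of 6 in M. musculus. As a scale for all marker counts, 11.1% to 25.4% of components were called higher and 10.4% to 13.4% lower over these days, and 17.6% to 23.8% of genes higher and 17.0% to 19.6% lower, both counted with the limits given above. A single call in a list of 5 or 6 genes, as for Vwf in A. cahirinus and the mural cell lists, is near or under most of these shares. The part of these markers in the values of Lamb1, Lamc1 and the other chains was not tested.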

How the data were processed

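Total RNA of ear tissue was sequenced in 10 groups (2 species, D0 and 4 days), 3 animals a group by the design. Reads had been mapped and counted by RSEM, against mm10 transcripts in M. musculus per the labels and against a Trinity assembly in A. cahirinus, and compared in EBSeq. In the deposited tables the authors gave 2 ratio columns, a posterior fold change and a fold change of normalised mean expected counts with 0.01 added, and 2 score columns, the posterior probabilities of equal and of different expression. The deposited BLASTN file gave percent identity of contigs to M. musculus transcripts. Tables held 658670 to 667087 features (A. cahirinus) and 23017 to 23114 (M. musculus), and precision is that of the pooled means. Read depth per animal is unknown.

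The ratio columns hold the authors' own comparisons, and the tables hold no other values, so they were used here, turned to day over D0 on a log2 scale. Both group means of a feature follow from the 2 ratios. On simulated data, 200 of 200 changed features kept their set change in both species. That change follows from 1 of the ratios alone, so this outcome was fixed in advance and does not test the recovered means. M. musculus gene numbers were named by their order along the genome (minimap2 2.31-r1302 matches to GENCODE vM21, GRCm38) between 1992 transcripts whose gene number a supplementary list pairs with an ID. With these held out in turn, 1712 were placed right, 6 wrong and 274 not placed. Python 3.11.15, pandas 2.3.3 and SciPy 1.17.1 were used.

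No test was run here. Calls are EBSeq's, at 0.95. Means are on the scale of the D5 table of each species. Named partner genes were, of each list, those with the highest and the lowest called change at D10 in each species, with a mean of at least 10. Marker genes named beside them were chosen after their values were seen. Some genes of the lists are not reported here. The members and lists were chosen with earlier results of these data known. Alternatives were a threshold of 0.99, a least log2 change of 1, a mean of at least 10, a pseudocount of 1, the posterior fold change, centring, summed components, other components, other lengths and leaving out D15.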

Additional observations from a re-analysis of the deposited data

Results flagged for a closer look

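Lama1 was the 1 chain whose 4 changes had the same sign in each species and opposite signs between them. It stood higher than D0 on all 4 days in A. cahirinus and lower on all 4 in M. musculus, and the A. cahirinus minus M. musculus log2 change averaged 4.03. The difference between the species was not tested, 1 of the 8 changes behind it was called (D5 in A. cahirinus), and the A. cahirinus D0 value rests on about 3 reads.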

How the results depend on the processing

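Requiring a log2 change of at least 1 left 0 called chains at D10, D15 and D20 in A. cahirinus and 1, 3, 3 and 3 from D5 to D20 in M. musculus. At D5 in A. cahirinus it kept Lama1 (4.80), Lama3 (1.79), Lamb3 (1.44) and Lama2 (-1.27) and took out Lamb2 (-0.28). A threshold of 0.99 left 0 at D20 in A. cahirinus and took out Lama5 at D15 in M. musculus, where 5 chains stayed called. Summing components moved the A. cahirinus median at D10 to 0.20 and turned that at D15 to -0.025, turned Lama3 to -0.15 at D15 and -0.26 at D20, and moved its species difference to 0.56. The larger long-only Lama3 component, chosen after seeing the data, turned that difference to -0.47. For Lama3 both settings hold, by construction, its long-only parts. A pseudocount of 1 moved the Lama1 difference to 3.17. It moved the A. cahirinus Lama1 changes at D5, D10 and D20 to 3.75, 1.72 and 1.06. Without division by length 13 alpha shares moved and 37 did not, and per kb covered 8 moved and 17 did not. Summed shares, whose pieces are all divided by the longest, rise by construction in genes split into several and are not given. Centring, the posterior fold change, components at any identity or with the highest D0 mean and a mean of at least 10 turned no called chain. For each of the 9 chains the component at any identity, and that with the highest D0 mean, was the main component itself. The outcome of these 2 settings was thus fixed in advance for the chains. Where such a setting was run on call counts, no count moved by over 1.5 times. Leaving out D15, chosen after seeing the data, was run on the 9 species differences alone and moved none of them by over 0.2. Centring turned the uncalled Lamb2 change at D20 in A. cahirinus, which is also the chain median there, from -0.00039 to 0.018. No paired analysis was possible because the tables hold no value per animal, and leaving out a replicate could not be run for the same reason. Low reads limit Lama1, and the missing spread between animals limits every comparison.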
